A study of Rattus norvegicus with 138 samples.

Results

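The interleukin-6 family cytokine axis was followed in rat tibialis anterior (TA) muscle after volumetric muscle loss (VML), the surgical removal of a block of muscle that is too large for the tissue to rebuild. The axis was taken as 10 gene symbols: the ligands Il6, Il11, Lif and Osm, the receptor chains Il6r, Lifr, Osmr and Il6st, the transcription factor Stat3 and the feedback inhibitor Socs3. They are 10 of the 16181 symbols with complete values, and all 10 were among the 11328 tested. A gene was tested when its mean exceeded 1 TPM, a transcript level scaled for transcript length and for the sum of its library, in at least 1 of 31 groups of muscles. Il6st, Stat3, Il6r and Lifr exceeded 1 TPM in every group, as did Osmr and Socs3, whereas the 4 ligands passed only through injured groups, so a higher level of these 4 in injured muscle is in part a consequence of that filter.

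Cytokines of this family share a signalling chain. Interleukin-6 first binds the Il6r chain and leukemia inhibitory factor the Lifr chain before the complex recruits gp130, the product of Il6st, whereas oncostatin M first binds gp130 and then recruits the Osmr or Lifr chain. Janus kinases associated with the receptor phosphorylate STAT3. Phosphorylated STAT3 enters the nucleus and induces target genes that include Socs3, whose protein binds gp130 and the kinases and shuts the signal off. In muscle, interleukin-6 is released by contracting fibers and by infiltrating leukocytes, leukemia inhibitory factor and interleukin-6 act on satellite cells, and oncostatin M is produced mainly by myeloid cells.

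The rats were inbred male Lewis rats of about 4 months. A 6 mm punch was taken from the middle of the left TA muscle, and the defect was either left without repair or filled with minced muscle graft (MMG), small autologous fragments cut from the tissue just excised. Muscles were collected at 3, 7, 14 and 28 days post injury (DPI) together with the opposite, contralateral TA of some rats, and some rats of each arm were labelled as running, a condition the study's text does not describe. Control muscle, labelled Sham day 0, is called uninjured in the study's methods and unoperated elsewhere in its text, so whether these rats had a sham operation is unclear. It came from the left and right TA of 2 rats of another numbered series, so the series and the injury cannot be told apart in any comparison with control muscle. Without running, there were 3, 8, 4 and 4 non-repaired injured muscles at 3, 7, 14 and 28 DPI, 7, 8, 4 and 4 grafted injured muscles, and 4, 10, 4 and 4 contralateral muscles over both arms. With running, there were 14, 8, 8 and 4 injured muscles and 4 contralateral muscles at each of 3, 7 and 14 DPI. The whole TA was homogenised, so defect, border and spared muscle were read together.

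The number of reads behind a TPM value is unknown, so its counting error is unknown too. Of 138 libraries, 9 had no consistent group label and 13 were left out because they held fewer than 7000 symbols above 1 TPM (901 to 5712). The others held between 7866 and 10948, and 7866 belonged to replicate 4 of the 4 control muscles, against 8760 to 8914 in the other 3. The 114 muscles that remained came from 78 rats. The limma test was run on log2(TPM + 1), and differences are given on that scale with their standard error (SE), which understates changes of genes near 0 TPM. A gene was called when its adjusted p was under 0.05 and its log2 difference beyond 1. Most genes were higher in injured than in control muscle on this scale, with medians over all tested genes of 0.96, 0.92, 0.53 and 0.52 at 3, 7, 14 and 28 DPI, and of 0.60, 0.87, 0.54 and 0.43 against contralateral muscle. After scaling by median-of-ratios size factors, which centre the typical gene, the share of called genes that were higher fell from 91.9% to 59.2%, 95% to 60.6%, 97.9% to 72.8% and 99% to 78.4% against control muscle, and from 84.5% to 59.4%, 94.4% to 60.1%, 98.5% to 70.3% and 98.4% to 79.5% against contralateral muscle. Calls of the 10 members that this scaling changes are named below.

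The 4 ligands were close to 0 in control muscle and highest in injured muscle at 3 or 7 DPI. Il6 measured 0, 0, 0.09 and 0.15 TPM in the 4 control muscles and 5.42, 10.43 and 10.99 TPM in the 3 non-repaired injured muscles at 3 DPI. Every injured muscle lay above every control muscle, with a log2 difference of 3.18 (SE 0.42, adjusted p = 7.7e-11, limma). At 7 DPI Il6 ranged from 0.36 to 1.87 TPM around a median of 0.97 in 8 injured muscles, and the log2 difference of 0.90 (SE 0.34, adjusted p = 0.011) did not pass the fold limit. By 14 DPI the injured muscles held 0.11, 0.13, 0.19 and 0.23 TPM and by 28 DPI 0.15, 0.17, 0.21 and 0.35 TPM, which overlapped the control muscles at 14 DPI and reached down to the highest of them at 28 DPI.

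Osm, which encodes oncostatin M, had a mean of 6.02 TPM at 3 DPI, against 8.95 TPM for Il6, and their ranges overlapped there and at 7 DPI. It was listed at 0, 0, 0.26 and 0.33 TPM in control muscle, at 4.53, 5.44 and 8.08 TPM at 3 DPI and between 0.71 and 3.63 TPM, median 1.5, at 7 DPI. The log2 differences were 2.59 (SE 0.28, adjusted p = 1.9e-14) and 1.20 (SE 0.22, adjusted p = 7.8e-07), with no overlap between injured and control muscle on either day, and with size factors the second was 0.94 and not called. The rats of 7 DPI fell into a lower and a higher range of rat numbers, and the Osm difference was 1.51 in the lower range alone and 0.88, not called, in the higher. At 14 DPI Osm measured 0.35, 0.42, 0.45 and 0.5 TPM and at 28 DPI 0, 0.16, 0.27 and 0.40 TPM, and neither difference passed the test.

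Lif, which encodes leukemia inhibitory factor, declined more slowly. Control muscle held 0, 0, 0 and 0.17 TPM, against 1.59, 2.12 and 3.59 TPM at 3 DPI and 1.09 to 2.05 TPM, median 1.69, at 7 DPI. Lif was called on both days, at log2 differences of 1.68 (SE 0.26, adjusted p = 6.6e-09) and 1.31 (SE 0.21, adjusted p = 1.3e-08). At 14 DPI the 4 injured muscles held 0.63, 0.95, 0.97 and 1.16 TPM and at 28 DPI 0.21, 0.51, 0.51 and 0.60 TPM. All 8 of these muscles lay above all 4 control muscles, but the log2 difference of 0.88 (adjusted p = 0.00066) was below the fold limit and that of 0.48 (adjusted p = 0.063) passed neither limit.

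Il11, a ligand known for its part in fibrotic tissue, had the lowest mean of the 4 in control muscle and at 3 DPI, and was the only one whose mean was higher at 7 than at 3 DPI, a difference that did not pass the test (0.41, SE 0.27, adjusted p = 0.22). It measured 0, 0, 0.05 and 0.06 TPM in control muscle, 0.45, 0.59 and 0.95 TPM at 3 DPI and 0.44 to 5.79 TPM, median 0.94, at 7 DPI. The log2 difference was 0.68 (SE 0.30, adjusted p = 0.030) at 3 DPI, below the fold limit, and 1.10 (SE 0.24, adjusted p = 2.3e-05) at 7 DPI, where it was called. The 7 DPI group was uneven: 1 muscle held 5.79 TPM and the next highest 1.48 TPM. With all libraries kept, the 13 of low complexity included, the 7 DPI difference was 0.88 and no longer called, and with size factors it was 0.92. It was 1.60 in the lower range of rat numbers and 0.60, not called, in the higher. The 3 DPI muscles were all of the lower range, so the comparison of 7 with 3 DPI mixes day and range. At 14 DPI Il11 measured 0.24 to 0.32 TPM, and its difference of 0.31 (adjusted p = 0.31) passed neither limit.

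**Figure D1:**
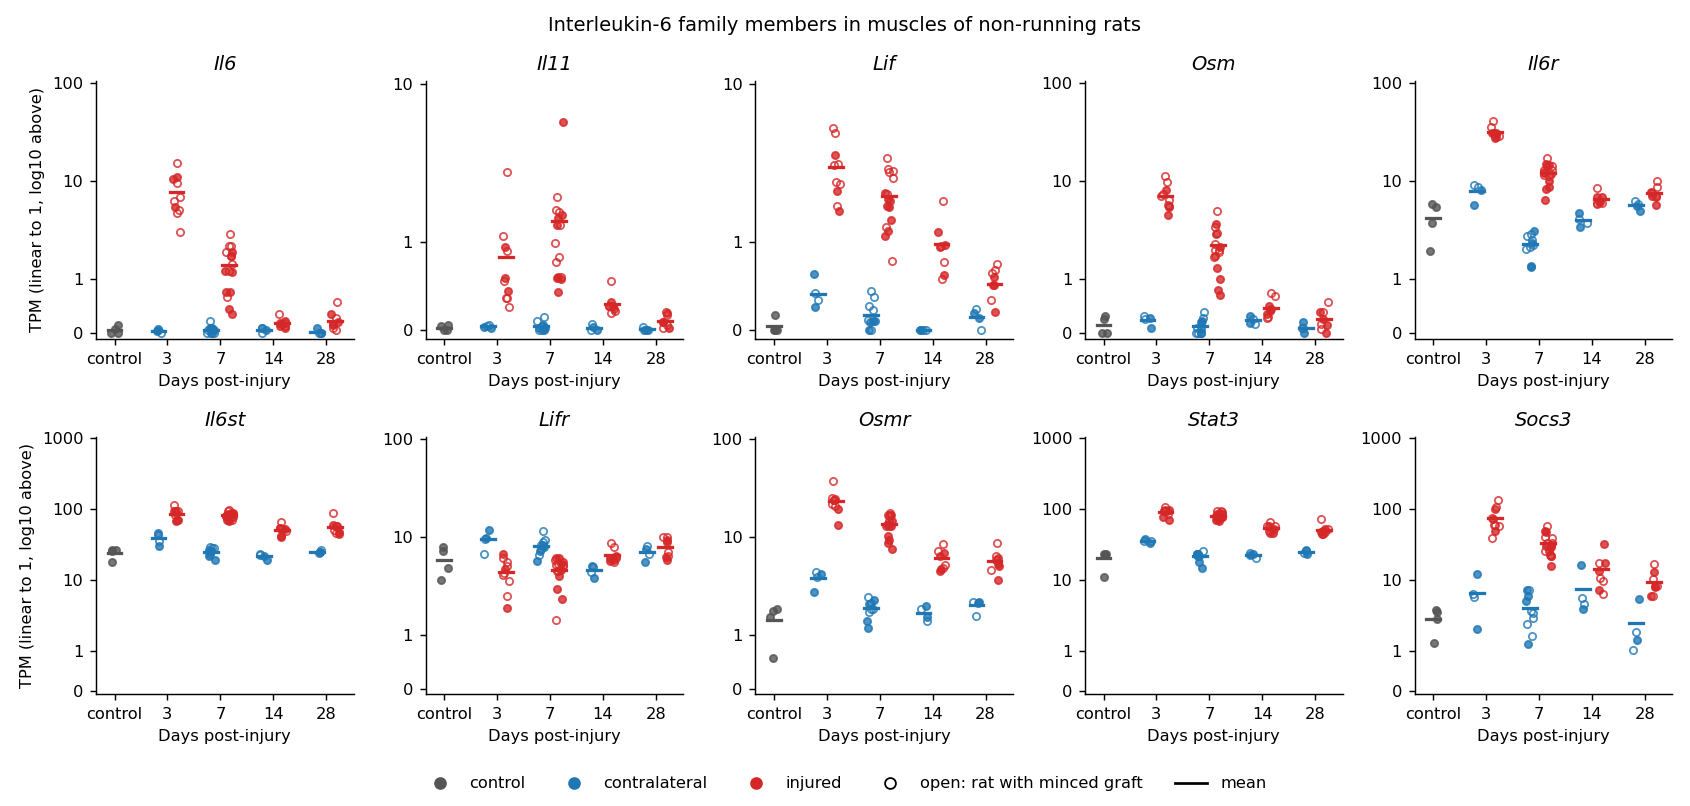
TPM of each of the 10 genes (y axis, linear near 0 and logarithmic above) in single muscles of non-running rats, for control, contralateral and injured muscle by DPI, where open points are grafted rats and bars are group means. Il6 in injured muscle falls from a mean of 7.78 TPM at 3 DPI to 0.19 TPM at 14 DPI, whereas the mean of Lifr rises from 4.40 TPM at 3 DPI to 7.91 TPM at 28 DPI.

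The letters upstream of the members bear on this pattern only as a description. RefSeq promoters of the GRCr8 assembly were available for 8 of the 10 genes (none for Osm and Lif), and the 250 bases before the annotated start were searched on both strands for 4 motifs: TGANTCA, the AP-1 motif, in 6.36% of 27457 promoters of that length, TGACGTCA, the cyclic AMP response element, in 1.7%, an NF-kappa-B motif of GGGA, any base and TTTCC in 0.32%, and TTCNNNGAA, a STAT motif, in 7.52%. The motifs did not overlap one another in these windows. Matches were found in 3 members, Il6, Il11 and Osmr, whose windows are shown here because they held a match, with the matched letters in capitals. The windows read 5′ to 3′ on the gene's own strand: chr4:5894576-5894825 on the minus strand for Il6, chr1:78098372-78098621 on the plus strand for Il11 and chr2:57688562-57688811 on the minus strand for Osmr.
Il6: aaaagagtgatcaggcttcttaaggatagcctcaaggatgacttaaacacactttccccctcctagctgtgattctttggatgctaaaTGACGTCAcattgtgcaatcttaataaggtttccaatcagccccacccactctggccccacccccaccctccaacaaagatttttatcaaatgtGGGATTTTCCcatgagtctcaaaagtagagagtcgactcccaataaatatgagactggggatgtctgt
Il11: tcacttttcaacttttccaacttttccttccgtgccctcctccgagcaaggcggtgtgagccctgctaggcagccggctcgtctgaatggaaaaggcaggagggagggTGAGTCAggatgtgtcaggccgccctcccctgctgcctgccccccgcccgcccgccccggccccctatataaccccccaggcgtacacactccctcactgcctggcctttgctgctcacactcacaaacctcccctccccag
Osmr: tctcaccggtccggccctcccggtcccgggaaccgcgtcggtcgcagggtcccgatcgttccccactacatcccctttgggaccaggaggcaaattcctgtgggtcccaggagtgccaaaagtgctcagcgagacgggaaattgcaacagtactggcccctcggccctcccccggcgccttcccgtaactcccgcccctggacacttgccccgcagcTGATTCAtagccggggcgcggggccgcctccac
Counted from the annotated start, the Il6 window held TGACGTCA at -162 to -155 and GGGATTTTCC at -68 to -59, the Il11 window held TGAGTCA at -142 to -136, and the Osmr window held TGATTCA at -33 to -27. The STAT motif was in none of the 8 windows, Socs3 included. A match in these letters is not a binding site, and its absence from 250 bases says nothing about the factor.

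Among the receptor chains, Osmr and Il6r rose after injury and Lifr did not. Osmr, the oncostatin M receptor, measured 0.57, 1.5, 1.76 and 1.83 TPM in control muscle and 13.08, 19.34 and 23.75 TPM at 3 DPI, a log2 difference of 3.03 (SE 0.22, adjusted p = 3.5e-22). It ranged from 7.45 to 16.81 TPM, median 11.5, at 7 DPI (log2 difference 2.38, SE 0.18), from 4.46 to 6.88 TPM at 14 DPI (1.47, SE 0.21, adjusted p = 1.9e-09) and from 3.57 to 6.03 TPM at 28 DPI (1.33, SE 0.21, adjusted p = 4.6e-08). No injured muscle overlapped control muscle at any of the 4 days, and Osmr was called at each. With size factors the difference at 28 DPI was 0.95 (adjusted p = 1.1e-06), just under the fold limit.

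Il6r, the interleukin-6 receptor chain, was highest at 3 DPI. It measured 1.93, 3.70, 5.41 and 5.84 TPM in control muscle and 27.21, 30.20 and 30.65 TPM at 3 DPI, a log2 difference of 2.61 (SE 0.19, adjusted p = 4.5e-22). At 7 DPI it ranged from 6.35 to 14.84 TPM, median 10.8, and the log2 difference of 1.21 (SE 0.16, adjusted p = 3.2e-11) was called, although it was 0.95 without replicate 4 of the control muscles and 0.89 with all libraries kept. It was 1.52 in the lower range of rat numbers and 0.89, not called, in the higher. With size factors it was 0.29 (adjusted p = 0.023). At 14 and 28 DPI the log2 differences were 0.60 (adjusted p = 0.0021) and 0.66 (adjusted p = 0.00089), under the fold limit, and with size factors 0.05 and 0.12 (adjusted p = 0.78 and 0.48). The injured levels of 6.12 to 6.95 TPM at 14 DPI lay above all control muscles, and those of 5.72 to 7.80 TPM at 28 DPI overlapped them.

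Il6st, which encodes the shared signal transducer gp130, was already among the more abundant members in control muscle, at 17.95, 25.97, 26.14 and 26.75 TPM. It measured 67.78, 70.04 and 92.60 TPM at 3 DPI, 67.20 to 88.76 TPM at 7 DPI, 40.40 to 53.32 TPM at 14 DPI and 44.37 to 58.78 TPM at 28 DPI, above every control muscle throughout. The log2 differences were 1.63 (SE 0.16), 1.69 (SE 0.13), 0.94 and 1.08 (SE 0.15), called at 3, 7 and 28 DPI. At 28 DPI the difference was 0.95 without replicate 4 of the control muscles. With size factors Il6st stayed higher at an adjusted p under 0.05 in each of these comparisons with control and contralateral muscle, but at log2 differences of 0.27 to 0.68, so none was called.

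Stat3, the transcription factor of the axis, moved in step with Il6st. Control muscle held 11.01, 22.61, 23.49 and 23.63 TPM, and injured muscle 69.94, 78.64 and 96.98 TPM at 3 DPI, 67.72 to 85.93 TPM at 7 DPI, 45.38 to 57.27 TPM at 14 DPI and 45.01 to 52.43 TPM at 28 DPI. It was called at all 4 days with no overlap, at log2 differences of 2.01 (SE 0.14), 1.93 (SE 0.12), 1.34 (SE 0.13) and 1.29 (SE 0.13). With size factors the differences from control and contralateral muscle stayed positive at 0.49 to 0.90 and none was called. These are transcript levels, and phosphorylation of STAT3 was not measured here.

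Socs3, the feedback inhibitor, was called higher at all 4 days. It measured 1.32, 2.87, 3.53 and 3.78 TPM in control muscle, 48.53, 71.52 and 99.92 TPM at 3 DPI and 15.77 to 49.37 TPM, median 29.6, at 7 DPI. At 14 DPI the injured muscles held 7.19, 13.50, 17.43 and 32.42 TPM and at 28 DPI 5.96, 7.99, 8.22 and 12.80 TPM, still above every control muscle. The log2 differences were 4.26 (SE 0.46, adjusted p = 5.2e-14), 3.03 (SE 0.37, adjusted p = 4.8e-12), 2.14 (SE 0.43, adjusted p = 8.2e-06) and 1.34 (SE 0.43, adjusted p = 0.0042). With size factors the difference at 28 DPI was 0.85 (adjusted p = 0.063) and was not called.

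Lifr, the leukemia inhibitory factor receptor, did not follow the other receptor chains. It measured 3.61, 4.83, 7.17 and 7.76 TPM in control muscle, 1.87, 4.62 and 6.61 TPM at 3 DPI and 2.31 to 6.10 TPM, median 4.86, at 7 DPI, and the groups overlapped. The log2 differences of -0.41 (SE 0.25, adjusted p = 0.12) and -0.30 (SE 0.20, adjusted p = 0.16) did not pass the test. They stood against a median gene that was 0.96 and 0.92 higher, and with size factors Lifr was called lower on both days, at -1.38 and -1.22. At 14 DPI it was at 5.66 to 6.38 TPM and at 28 DPI at 5.74 to 9.33 TPM, with log2 differences of 0.07 and 0.34 that became -0.54 (adjusted p = 0.023) and -0.25 with size factors.

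Of the 10 members, 8, 8, 3 and 4 were called higher in injured than in control muscle at 3, 7, 14 and 28 DPI and none was called lower. The background was 48.3%, 45.6%, 25% and 21.1% of all tested genes called higher and 4.24%, 2.42%, 0.547% and 0.212% called lower, so the count at 14 DPI is near the share of all genes. The median log2 difference of the members was 2.30, 1.26, 0.74 and 0.57, a description only, since 4 of them entered through their injured level. The order of mean TPM also moved. In control muscle it ran from Il6st (24.2 TPM) and Stat3 (20.2 TPM) over Lifr (5.84 TPM), Il6r (4.22 TPM), Socs3 (2.88 TPM) and Osmr (1.42 TPM) to the ligands at 0.15 TPM or less. The spreads of neighbours overlapped, Il6st with Stat3, Lifr with Il6r, Il6r with Socs3 and Socs3 with Osmr. At 3 DPI Stat3, Il6st and Socs3 stood together at 81.9, 76.8 and 73.3 TPM with overlapping muscles. Lifr, above Il6r, Socs3 and Osmr in control muscle, stood at 4.37 TPM, below Il6r, Osmr, Il6 (8.95 TPM) and Osm (6.02 TPM), although its muscles overlapped those of Il6 and Osm. At 28 DPI Lifr stood at 7.51 TPM, between Socs3 at 8.74 TPM and Il6r at 6.85 TPM and overlapping both.

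Markers of other cell types and of muscle fibers differed between the same groups. All 9 macrophage and monocyte markers tested were called higher in non-repaired injured than in control muscle at every day, and their summed level was 15.96 to 27.1 TPM in control muscle, 1251 to 2110 TPM in injured muscle at 3 DPI and 158 to 387 TPM at 28 DPI (injured ranges over all arms). Of 5 neutrophil markers tested, 4, 3, 2 and 0 were called, with sums over the 7 listed of 1.28 to 5.74 TPM in control muscle, where Camp was at 0 in all 4, and 62.1 to 465 TPM at 3 DPI. All 5 fibroblast markers were called at every day, with sums of 63.9 to 211 TPM against 4035 to 13108 TPM at 3 DPI, and of 4 T cell markers 4, 4, 4 and 0. Of 7 muscle fiber markers, 7, 4, 1 and 0 were called lower, beside 4.24%, 2.42%, 0.547% and 0.212% of all tested genes. The sum of these markers was 151564 to 184161 TPM in control muscle. It was 16565 to 60144 TPM at 3 DPI and 93833 to 137774 TPM at 28 DPI. Endothelial markers were called higher for 2, 3, 2 and 1 of 4, and satellite cell markers for 4, 3, 3 and 4 of 4, beside the 48.3%, 45.6%, 25% and 21.1% of all tested genes called higher, and with size factors no endothelial marker was called. In whole muscle, more cells of a type and more RNA per cell cannot be told apart, and the part of these cell types in the levels of the axis was not tested.

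Against contralateral muscle, which belongs to the same numbered series as the injured muscle, 8, 9, 3 and 4 members were called higher at 3, 7, 14 and 28 DPI, beside 34.8%, 43.8%, 23.4% and 16% of all tested genes, and none was called lower, beside 6.39%, 2.62%, 0.344% and 0.265%. This comparison took the mean of the repaired and non-repaired arms of non-running rats. The 4 ligands passed the filter only through injured groups, so the counts that include them are a description only. At 7 DPI the 16 injured muscles were 8 of each range of rat numbers, whereas 8 of 10 contralateral muscles, all 4 non-repaired ones among them, were of the higher range. In the higher range alone 7 members were called, and Il6 (0.95) and Il11 (0.70) were not. At 3 DPI the 8 were all members but Il11 and Lifr, and at 7 DPI all but Lifr. At 14 DPI they were Il6st (log2 difference 1.19, SE 0.13), Osmr (1.37, SE 0.18) and Stat3 (1.22, SE 0.12), and at 28 DPI these with Socs3 (1.70, SE 0.37, adjusted p = 4.2e-05). With size factors Il6st and Stat3 were not called higher at 3 and 7 DPI, nor Il6 (0.86), Il11 (0.84) and Lif (0.99) at 7 DPI, no member was called at 14 DPI and only Socs3, at 1.34, at 28 DPI. In non-repaired rats alone, Osmr and Stat3 missed the fold limit at 28 DPI, at 0.91 and 0.95, and Stat3 lay between 0.93 and 0.99 when any 1 of 4 muscles was left out.

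Il6 was at or near 0 in contralateral muscle at every day. It ranged over 4 muscles from 0 to 0.09 TPM at 3 DPI, against 3.04 to 15.39 TPM in 10 injured muscles, and over 10 contralateral muscles from 0 to 0.23 TPM at 7 DPI, against 0.36 to 2.87 TPM in 16. The log2 differences were 3.02 (SE 0.33, adjusted p = 1.0e-13) and 1.12 (SE 0.22, adjusted p = 3.9e-06), and the groups did not overlap. The second fell to 0.89 in non-repaired rats alone. Lif was listed at 0 in all 4 contralateral muscles at 14 DPI and at 0.58 to 1.82 TPM in 8 injured muscles, so that no fold is given there.

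Osmr and Socs3 transcripts were present in both muscles, with a higher mean in injured muscle at each day. Osmr averaged 3.76, 1.88, 1.67 and 1.99 TPM in contralateral muscle and 23.1, 13.3, 6.00 and 5.63 TPM in injured muscle over the 4 days, and the lowest injured muscle of any day, at 3.57 TPM, was above the highest contralateral muscle of 7, 14 and 28 DPI. Socs3 averaged 6.63, 4.10, 7.55 and 2.46 TPM against 75.5, 32.8, 14.3 and 9.55 TPM. At 14 DPI the Socs3 ranges overlapped, since 1 contralateral muscle held 16.07 TPM, and its difference of 0.88 (SE 0.37, adjusted p = 0.027) was below the fold limit.

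**Figure D2:**
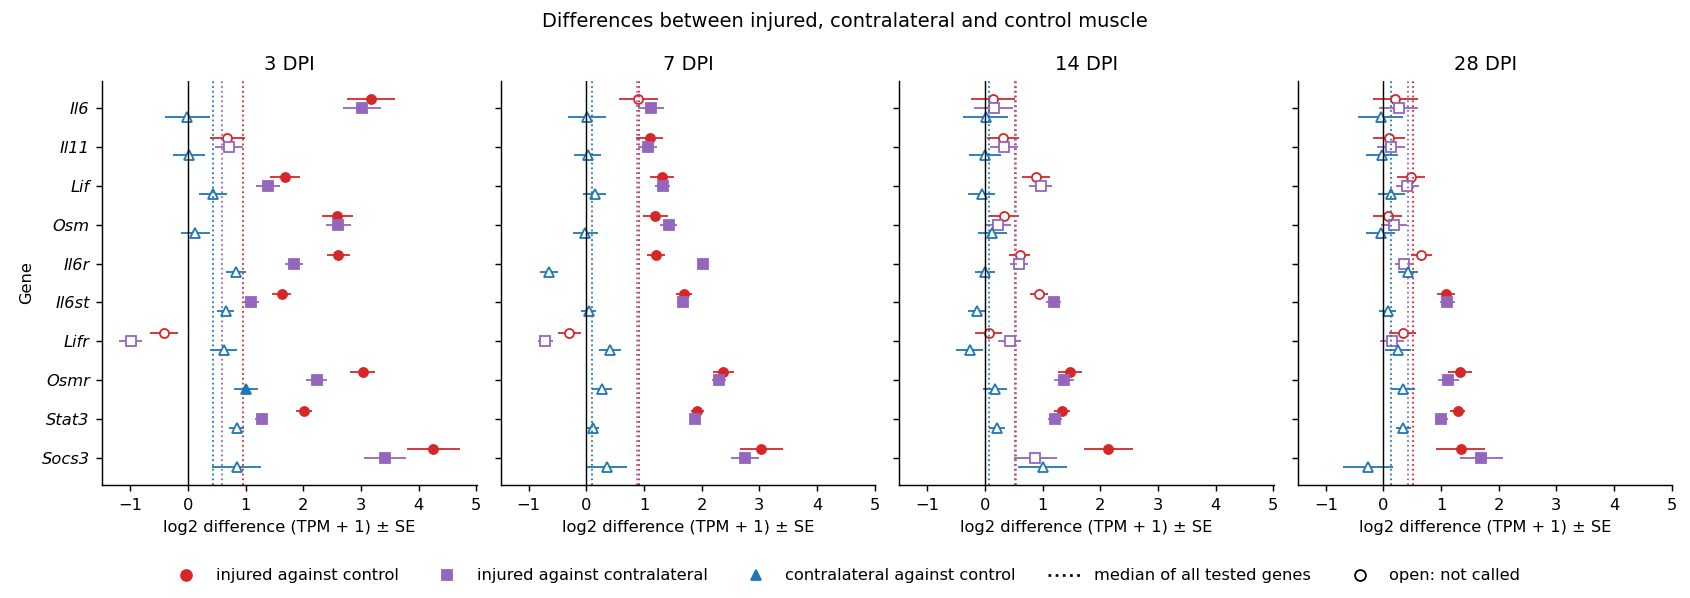
Differences of log2(TPM + 1) with SE bars (x axis) for each gene (y axis) in 1 panel per DPI, for injured against control (circles, non-repaired), injured against contralateral (squares) and contralateral against control muscle (triangles) of non-running rats, with open points for differences that were not called and dotted lines for the median of all tested genes. Lifr lies below the dotted lines at 3 and 7 DPI in both comparisons of injured muscle, and with size factors its small positive differences from contralateral muscle at 14 and 28 DPI turn negative, as do those from control muscle on these days.

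Lifr was the member whose direction differed. In contralateral muscle it ranged from 6.61 to 11.64 TPM at 3 DPI, 5.69 to 11.30 TPM at 7 DPI, 3.80 to 5.1 TPM at 14 DPI and 5.53 to 8.09 TPM at 28 DPI. In injured muscle it ranged from 1.87 to 6.61, 1.40 to 6.10, 5.52 to 8.59 and 5.74 to 10 TPM. The injured muscles thus lay at or below the contralateral ones at 3 DPI, overlapped them slightly at 7 DPI, lay above them at 14 DPI and overlapped them at 28 DPI. The log2 differences were -0.99 (SE 0.20, adjusted p = 5.4e-06), -0.71 (SE 0.13, adjusted p = 1.1e-06), 0.43 (SE 0.20, adjusted p = 0.047) and 0.15 (SE 0.20, adjusted p = 0.51), none beyond the fold limit. With size factors they were -1.51 and -1.59, both called, and then -0.16 (adjusted p = 0.46) and -0.33, so that a lower Lifr early held under both scalings and a higher Lifr at 14 DPI did not.

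Both muscles were available from 34 rats, running rats included. The injured muscle was the higher in all 34 for Il6, Il6r, Il6st, Lif, Osmr, Socs3 and Stat3, and in 33 for Il11 and Osm, beside 49.24% of all tested genes that were higher in every one of the 34. The ligands among them passed the filter only through injured groups. Lifr was lower in the injured muscle in 22 of 22 rats at 3 and 7 DPI and higher in 11 of 12 at 14 and 28 DPI. Over all tested genes, 6.2% were lower in every one of the 22 early rats and 54.56% higher in every one, and 5.38% were lower and 64.68% higher in every one of the 12 later rats. With size factors Lifr stayed lower in 8 of 8 rats at 3 DPI and 14 of 14 at 7 DPI, and was higher in 4 of 8 at 14 DPI and 1 of 4 at 28 DPI. Il6r was likewise higher with size factors in only 4 of 8 and 1 of 4 rats at the later days. At 14 DPI Il6 and Il11 were each higher with size factors in 7 of 8 rats and Osm in 6 of 8. Lif, Il6st, Osmr, Stat3 and Socs3 stayed higher in every rat.

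**Figure D3:**
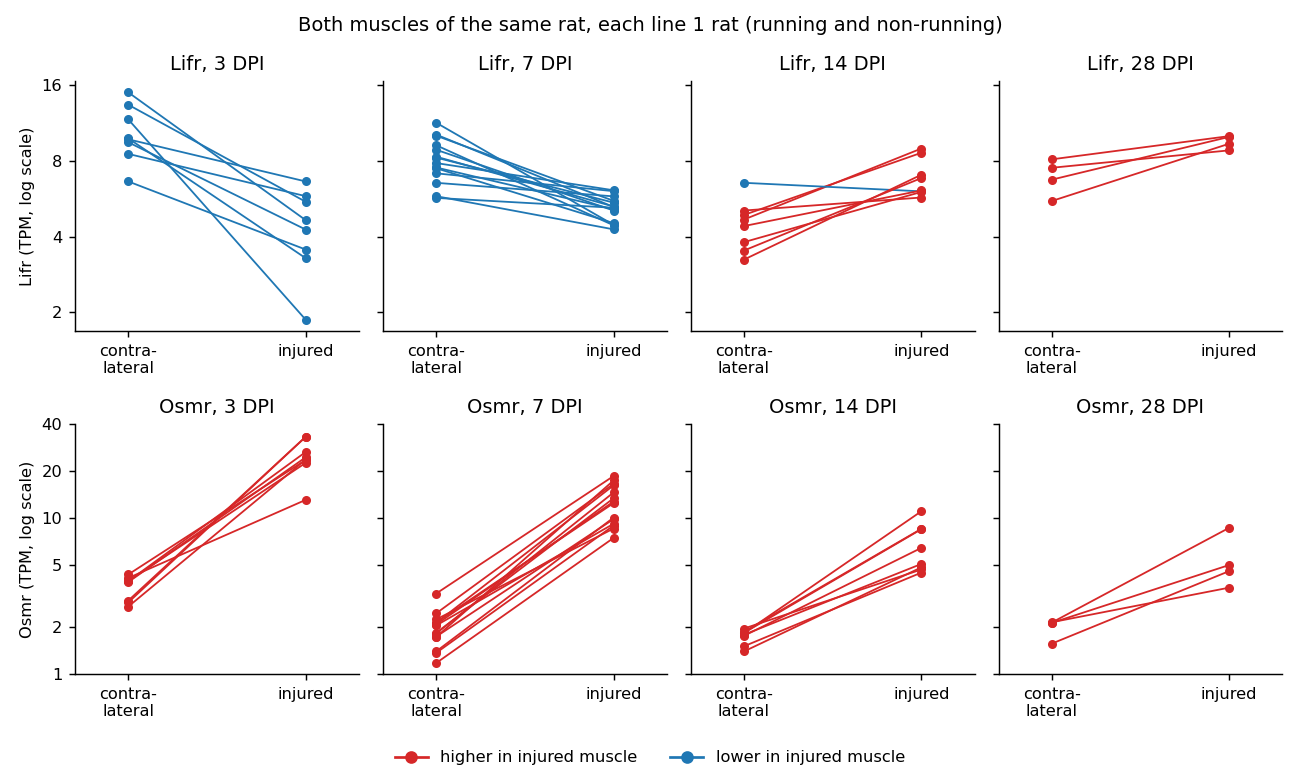
Lifr (upper panels) and Osmr (lower panels) in TPM (y axis, logarithmic) in the contralateral and injured muscle (x axis) of each of 34 running and non-running rats, 1 line a rat and 1 panel per DPI, red where the injured muscle was higher and blue where it was lower. All 22 Lifr lines of 3 and 7 DPI fall toward the injured muscle while all Osmr lines rise, and the rise of 11 of 12 Lifr lines at 14 and 28 DPI is not kept with size factors.

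Ratios of 2 members within a library do not depend on how the library is scaled, and 5 were compared between the muscles of each rat, at 4 days each, with exact permutation tests over rats adjusted over the 20 tests. The ratios were chosen after the levels had been seen, so the p-values describe a known pattern. Osmr to Lifr had a median of 0.22 in control muscle, 0.32 in contralateral and 5.89 in injured muscle at 3 DPI, where the lowest injured muscle, at 3.59, exceeded the highest contralateral one, at 0.59. The log2 ratio was higher in the injured muscle by 4.07 ± 0.70 (SD, 8 of 8 rats, exact p = 0.0078, adjusted 0.011) at 3 DPI, by 3.31 ± 0.55 (14 of 14 rats, exact p = 0.00012, adjusted 0.00081) at 7 DPI and by 1.25 ± 0.33 (8 of 8 rats, exact p = 0.0078, adjusted 0.011) at 14 DPI. These are the smallest p-values that 8 and 14 rats allow. At 28 DPI it was higher by 0.92 ± 0.65 in 3 of 4 rats, where the smallest p allowed is 0.13.

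The ratio of Lifr to Il6st, both parts of the leukemia inhibitory factor receptor, fell in the injured muscle of every rat. Its median was 0.23 in control muscle, 0.27 and 0.32 in contralateral muscle at 3 and 7 DPI, and 0.048 and 0.063 in injured muscle. The log2 ratio differed by -2.50 ± 0.58 at 3 DPI (8 of 8 rats lower), -2.30 ± 0.39 at 7 DPI (14 of 14), -0.62 ± 0.32 at 14 DPI (8 of 8) and -0.65 ± 0.51 at 28 DPI (4 of 4, exact p = 0.13). The first 3 had adjusted exact permutation p-values of 0.011, 0.00081 and 0.011. Lifr therefore stood lower relative to Il6st at 14 DPI too, although its TPM was the higher in the injured muscle of 7 of 8 rats. With size factors it was the higher in 4 of 8.

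Relative to Il6st, the other ligand-binding chains went separate ways. The log2 ratio of Osmr to Il6st was higher in injured muscle by 1.57 ± 0.32 (8 of 8 rats), 1.01 ± 0.37 (14 of 14) and 0.63 ± 0.17 (8 of 8) at 3, 7 and 14 DPI, and by 0.28 ± 0.35 in 3 of 4 rats at 28 DPI. That of Il6r to Il6st was higher by 0.97 ± 0.46 in 8 of 8 rats at 3 DPI and by 0.52 ± 0.43 in 13 of 14 at 7 DPI, and lower by a log2 ratio of -0.45 ± 0.30 in 8 of 8 rats at 14 DPI and -0.71 ± 0.28 in 4 of 4 at 28 DPI. Adjusted exact permutation p-values were 0.011, 0.00081, 0.011 and 0.25 for Osmr and 0.011, 0.0073, 0.011 and 0.14 for Il6r. The log2 ratio of Socs3 to Stat3 was higher by 2.78 ± 1.01 in 8 of 8 rats at 3 DPI, 1.10 ± 0.73 in 13 of 14 at 7 DPI, 0.60 ± 0.70 in 6 of 8 at 14 DPI and 1.20 ± 0.71 in 4 of 4 at 28 DPI (adjusted exact permutation p = 0.011, 0.0018, 0.042 and 0.14).

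The contralateral muscle itself differed from control muscle at 3 DPI. Osmr, at 2.70 to 4.34 TPM over 4 muscles against 0.57 to 1.83 TPM, was the 1 member called (log2 difference 1.00, SE 0.21, adjusted p = 3.5e-05), beside 7.09% of all tested genes called higher and a median over all genes of 0.44. Stat3 at 0.84 (adjusted p = 2.4e-07), Il6r at 0.83, Il6st at 0.65 and Lifr at 0.62 (adjusted p = 0.016) passed the p limit alone. With size factors Stat3 (0.29) and Il6r (0.37, adjusted p = 0.031) still passed it, and Il6st (0.09, adjusted p = 0.54) and Lifr (0.12, adjusted p = 0.71) did not. For Stat3 the 4 contralateral muscles, at 33.79 to 37.44 TPM, lay above all 4 control muscles. The Osmr call was lost with size factors (0.69, adjusted p = 0.00084, under the fold limit), with the control muscles averaged per rat (0.97), and without any 1 of 3 muscles, at 0.81 without control replicate 4.

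No member was called between contralateral and control muscle at 7, 14 or 28 DPI, where 1.04%, 1.03% and 0.512% of all tested genes were called in either direction. The limma test gave 2, 1 and 2 members an unadjusted p under 0.05. Il6r at 7 DPI was the clearest of them, at 1.33 to 3.08 TPM over 10 contralateral muscles (log2 difference -0.65, SE 0.15, adjusted p = 0.0015), below the fold limit. Macrophage and monocyte markers in contralateral muscle summed to 65.2 to 144 TPM at 3 DPI, with 8 of 9 called higher than control, and neutrophil markers to 8.62 to 157 TPM. The part of these cells in the Osmr level was not tested.

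Over time in non-repaired injured muscle, Il6, Osm, Il6r and Socs3 were the first members called lower. From 3 to 7 DPI these 4 were called lower, beside 5.35% of all tested genes: Il6 by a log2 difference of -2.28 (SE 0.37, adjusted p = 4.6e-07), Il6r by -1.41 (SE 0.17, adjusted p = 1.9e-10), Osm by -1.40 (SE 0.24, adjusted p = 2.2e-06) and Socs3 by -1.23 (SE 0.41, adjusted p = 0.013). The Socs3 call rested on 1 muscle, and without replicate 2 of the 3 DPI group it was -0.98 (adjusted p = 0.10). Osmr differed by -0.65 (adjusted p = 0.0059), under the fold limit, and Lif by -0.37 (adjusted p = 0.19). No member was called from 7 to 14 DPI, beside 6.82% of all genes in either direction, although the limma test gave 9 of them an unadjusted p under 0.05, and none from 14 to 28 DPI, beside 0.459% and with 0 at an unadjusted p under 0.05. The 3 DPI muscles were all of the lower range of rat numbers and the 7 DPI muscles of both. Those of 14 and 28 DPI lay outside both ranges. Day and range are therefore mixed in all comparisons over time, and neither range was fitted alone for them.

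From 3 to 28 DPI, 6 members were called lower, beside 24.3% of all genes. They were Il6 (-2.98), Socs3 (-2.92), Osm (-2.52), Il6r (-1.96), Osmr (-1.70) and Lif (-1.20, -0.97 without replicate 2 of the 3 DPI group and -0.91 with size factors). Il6st and Stat3 differed by -0.55 and -0.73. Lifr differed by 0.75 in the other direction (SE 0.25, adjusted p = 0.0061), under the fold limit, against a median over all genes of -0.44. With size factors Lifr was called higher at 28 than at 3 DPI, at 1.12 (adjusted p = 2.1e-05), beside 9.12% of genes.

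The change over time was also tested on the difference between injured and contralateral muscle. Between 7 and 3 DPI this difference shrank for Il6 by -1.90 (SE 0.40, adjusted p = 5.7e-05) and Osm by -1.18 (SE 0.26, adjusted p = 0.00013) on the log2 scale, beside 8.57% of all genes called. For Il6r and Socs3, lower at 7 than at 3 DPI in injured muscle, it moved by 0.17 (adjusted p = 0.43) and -0.66 (adjusted p = 0.20). For Il6st and Stat3 it moved up by 0.58 (adjusted p = 0.0013) and 0.61 (adjusted p = 0.00015), under the fold limit, and with size factors by 0.22 (adjusted p = 0.081) and 0.25 (adjusted p = 0.0040). Between 14 and 7 DPI it shrank for Socs3 by -1.88, Il6r by -1.42 and Osm by -1.20, and moved up for Lifr by 1.14 (SE 0.24, adjusted p = 6.8e-05), beside 8.78%. Between 28 and 3 DPI it shrank for Il6, Osm, Socs3, Il6r and Osmr by -2.76, -2.43, -1.72, -1.49 and -1.11 and moved up for Lifr by 1.14 (SE 0.28, adjusted p = 0.00037), beside 22.3%. With size factors the Lifr shifts were 1.43 and 1.18 and were called again, and the Osmr shift of -0.90 missed the fold limit. Either muscle can move this difference. In non-running rats, mean injured Lifr rose from 4.57 at 7 to 6.48 TPM at 14 DPI. Contralateral Lifr fell from 8.05 to 4.535 TPM. Contralateral Il6r averaged 7.94, 2.26 and 3.985 TPM at 3, 7 and 14 DPI. Contralateral Socs3 rose from 4.10 to 7.55 TPM, with 1 muscle at 16.07 TPM. Most muscles of 3 DPI were of the lower range of rat numbers and most contralateral ones of 7 DPI of the higher. Day and range are therefore mixed here too.

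No difference in the axis between grafted and non-repaired muscle passed the test. In injured muscle of non-running rats, 0 of 10 members were called between grafted and non-repaired muscle at each day, beside 0.00883%, 0.0883%, 0.0265% and 0% of all tested genes. The limma test gave 1, 3, 0 and 0 members an unadjusted p under 0.05. Osmr was one of them at both early days: it averaged 25.0 TPM in 7 grafted and 18.7 TPM in 3 non-repaired muscles at 3 DPI (log2 difference 0.41, SE 0.20, adjusted p = 0.28) and 15.1 against 11.6 TPM in 8 and 8 at 7 DPI (0.39, adjusted p = 0.078). Osm (0.43, adjusted p = 0.11) and Il6r (0.32, adjusted p = 0.091) were the others at 7 DPI. The lowest difference was -0.53 for Socs3 at 14 DPI (adjusted p = 0.73).

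Running likewise left 0 of 10 members called in injured muscle, over both repair arms, beside 0.0177%, 0%, 0% and 0.309% of all tested genes, with 1, 0, 0 and 1 at an unadjusted p under 0.05 by limma. At 3 DPI Osmr averaged 29.2 TPM in 14 running and 23.1 TPM in 10 non-running muscles, a log2 difference with both repair arms weighted equally of 0.42 (SE 0.13, adjusted p = 0.079) and wide overlap (19.08 to 41.94 against 13.08 to 36.88 TPM). With size factors it was 0.39 (adjusted p = 0.025), past the p limit but under the fold limit. Stat3 at 28 DPI differed by -0.26 (adjusted p = 0.30). Il6 at 3 DPI spread from 2.87 to 48.78 TPM around a median of 6.21 in running rats, against 3.04 to 15.39 TPM around 6.57 in the others, and the 2 highest values, 32.83 and 48.78 TPM, were non-repaired running muscles. In contralateral muscle no member was called for running at 3, 7 or 14 DPI, beside 0.265%, 0.00883% and 0% of all genes, with 0, 1 and 1 at an unadjusted p under 0.05. These were Il6r at 7 DPI (0.42, adjusted p = 0.21) and Socs3 at 14 DPI (-1.06). At 7 DPI all running muscles were of the lower range of rat numbers. Non-running injured muscles were of both ranges, and non-running contralateral ones mostly of the higher. Running and range are therefore mixed on that day.

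**Figure D4:**
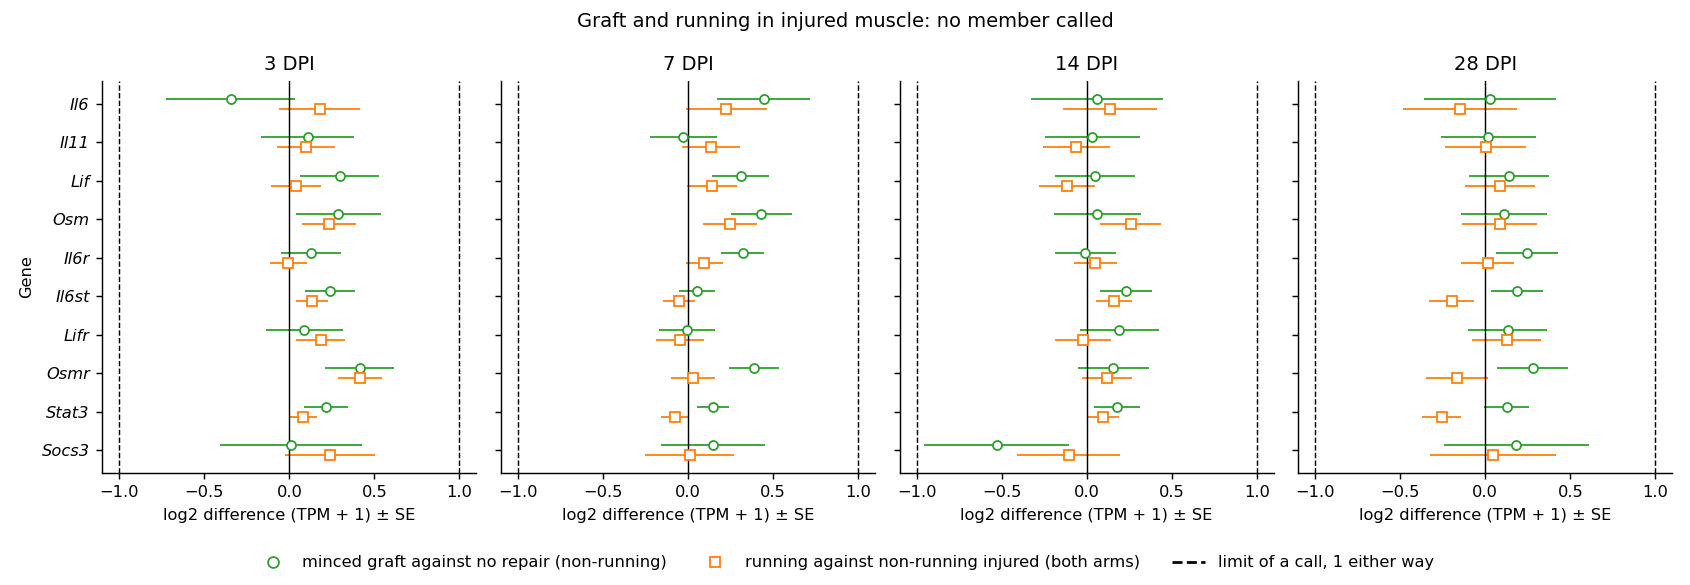
Differences of log2(TPM + 1) with SE bars (x axis) for each gene (y axis) in 1 panel per DPI, for grafted against non-repaired (circles) and running against non-running injured muscle (squares), with dashed lines at the fold limit of 1 in each direction. None of the points was called, and Osmr at 3 DPI stands at 0.41 for the graft and 0.42 for running.

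Other genes of the pathway were read from lists of ligands, receptors, signalling proteins, inhibitors and targets. The genes named from them are mainly those called against control muscle, so their number is no result, beside the 48.3% of all tested genes called higher at 3 DPI and 21.1% at 28 DPI. Ebi3, a subunit of interleukin-27 and interleukin-35, rose from 1.69 to 14.5 TPM at 3 DPI (log2 difference 2.52). Clcf1, a further ligand of the family, rose from 0.79 to 4.96 TPM (1.74). Of the receptors Il11ra1 and Cntfr, only Cntfr was called, at 28 DPI, when it stood at 41.3 against 10.5 TPM in control muscle (1.84, adjusted p = 3.1e-08). It was called at 28 DPI with size factors too.

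Shc1, an adaptor of the Ras branch, rose from 10.5 to 91.1 TPM at 3 DPI (log2 difference 3.12) and was still at 32.1 TPM at 28 DPI (1.65), called under both scalings. Jak2, a Janus kinase, and the adaptors Gab1 and Grb2 were also called higher at 3 DPI, at log2 differences of 2.17, 1.5 and 1.29, and with size factors Jak2 alone of these 3. Ptpn11, the phosphatase SHP2 that binds gp130 at the same site as SOCS3, averaged 60.2 TPM at 3 DPI against 110 TPM in control muscle. Its log2 difference was -0.87 (adjusted p = 2.5e-08), under the fold limit, and it was called lower with size factors at every day.

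Of 7 further feedback inhibitors, 4, 3, 2 and 1 were called higher, near the 48.3%, 45.6%, 25% and 21.1% of all tested genes, and 1, 1, 0 and 0 lower. Socs1 rose from 0.43 to 4.39 TPM at 3 DPI (log2 difference 1.88) and 7.15 TPM at 7 DPI (2.43), and remained called at 28 DPI (1.04). Ptpn1 (1.73), Pias3 (1.56) and Ptpn2 (1.52) were the others higher at 3 DPI. Cish, an inhibitor of STAT5 signalling, moved the opposite way, from 61.0 to 15.1 TPM at 3 DPI (-1.58, adjusted p = 0.049) and 15.9 TPM at 7 DPI (-2.03, adjusted p = 0.0017). Both sheddases that release the soluble interleukin-6 receptor, Adam10 (2.21) and Adam17 (2.08), were called higher at 3 DPI, and 2, 2 and 1 at the later days.

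Of 21 known STAT3 target genes tested, 19, 15, 12 and 8 were called higher and none lower, beside the same 48.3%, 45.6%, 25% and 21.1% of all tested genes, with median log2 differences of 2.46, 2.27, 1.21 and 0.92 beside 0.96, 0.92, 0.53 and 0.52 over all genes. With size factors 13, 11, 9 and 4 were called higher and 0, 2, 0 and 2 lower, beside 24.5%, 21.9%, 15.8% and 11.5% of all genes higher and 16.8%, 14.2%, 5.9% and 3.17% lower. Timp1, an inhibitor of metalloproteinases, rose from 2.16 to 490 TPM at 3 DPI (log2 difference 7.20) and was at 23.0 TPM at 28 DPI (2.98). Birc5 (4.46), Il4r (4.43), Bcl3 (4.13), Serpina3n (3.67), Junb (3.62) and Myc (3.47) followed at 3 DPI, and all but Birc5 were still called at 28 DPI. Several of these genes also mark dividing cells, fibroblasts or leukocytes, and the part of these cells in their levels was not tested. Against contralateral muscle 16, 15, 11 and 8 were called higher, beside 34.8%, 43.8%, 23.4% and 16% of all tested genes.

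The genes whose group means moved most like each member were listed by Pearson r of log2(mean TPM + 1) over the 31 groups, which share controls, scaling and composition, so r is a description with no p. For Il6 they were Dmrtc2 (0.9878), Ccl20 (0.9878) and Slc4a5 (0.9854), and for Osm Depdc1b (0.9950), Kif20b (0.9932) and Cenpf (0.9931). For Osmr they were Slc23a2 (0.9968), Stxbp5 (0.9959) and Cpne1 (0.9954), and for Il6r Acox3 (0.9793), Por (0.9761) and Atg7 (0.9753). For Stat3 they were Hmgxb4 (0.9946), Blmh (0.9943) and Golgb1 (0.9927), the last also first for Il6st (0.9932), ahead of Serinc3 (0.9916) and Marf1 (0.9910). For Socs3 they were Myd88 (0.9715), Hsd17b1 (0.9702) and RGD1561778 (0.9680), for Lif Pnrc2 (0.9872), Cdkn2c (0.9871) and Tra2b (0.9871), and for Il11 Il1rl2 (0.9863), LOC691162 (0.9777) and Kcnj15 (0.9747).

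Lifr had no neighbour above 0.9386, the value of Hipk3, followed by Rfesd (0.9371) and Cul5 (0.9349). With the other 9 members its r was negative throughout, from -0.5747 with Il11 to -0.2455 with Il6st. Among the other members, Il6st and Stat3 correlated at 0.99 and Socs3 and Osmr at 0.9525. In the GRCr8 annotation Osmr and Lifr lie on chromosome 2 with 1 annotated gene and 0 protein-coding genes between them, and Lif and Osm lie next to each other on chromosome 14 with 0 genes between.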

How the data were processed

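RNA from whole TA muscle was sequenced, and the authors quantified transcripts with Kallisto and deposited 1 table of TPM per gene symbol. Per the labels, kallisto and DESeq were used, without versions, and the build stated in the study's methods was not needed here. TPM removes depth, for which the study's methods give an average and a minimum but no value per library. The last symbol was incomplete and was left out. There were 0 unmapped columns of values.

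Libraries were grouped by their labels, 9 with conflicting labels were not grouped, and libraries of 1 muscle were averaged. Members, gene lists, markers and tests were chosen with earlier results of these data known. The genes named are the 10 members, list genes called at 3 or 28 DPI with up to 3 others a list, markers, and the 3 genes most like each member. Some listed ligands and signalling genes are not reported here, nor are the counts of their lists.

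Group means were fitted in 1 model with limma 3.58.1 in R 4.3.3 (trend in the empirical Bayes step, 83 residual degrees of freedom, pseudocount 1), with Benjamini-Hochberg adjustment over all 11328 genes of a comparison, and checked on simulated data. This replaced the count test of the study's methods, since no counts were used. Muscles of 1 group came from different rats except in control. The p-values rest on a spread between muscles that is pooled over all groups. Left and right control muscles of the same rat entered as separate replicates. The p-values against control therefore do not measure the spread between control rats. Both muscles of 34 rats entered, and the rat was tried as a random block (statmod 1.5.0). Ratios were tested by two-sided exact permutation in scipy 1.17.1. Values were tabulated in Python 3.11.15 with pandas 2.3.3 and numpy 2.4.6 and drawn with matplotlib 3.10.9.

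Alternatives were a pseudocount of 0.1, no filter, size factors, all libraries kept, libraries of a muscle entered separately, running rats left out, non-repaired rats alone, control muscles averaged per rat and the omission of single muscles. Either range of rat numbers alone at 7 DPI was chosen after seeing the data.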

Additional observations from a re-analysis of the deposited data

Results flagged for a closer look

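Dixon's limits give about 1 in 20 only for normally distributed values, whereas TPM near 0 is not, and the combinations below share muscles. The share flagged therefore cannot be set against chance. Single muscles stood far from the others of their group, by these limits, in 17 of 160 combinations of gene and group tested (10.62%). In grafted non-running rats these were Il6 at 0.23 TPM and Socs3 at 7.34 TPM in contralateral muscle at 7 DPI, Il11 at 2.80 TPM and Osmr at 36.88 TPM in injured muscle at 3 DPI, Lifr at 1.40 TPM, the lowest of its group, at 7 DPI and Il6r at 8.45 TPM at 14 DPI. In non-repaired running rats, 1 injured muscle at 3 DPI held both the Il11 value of 5.84 TPM and the Socs3 value of 269.35 TPM, 1 at 14 DPI held Il6st at 78.37 TPM, Osmr at 11.05 TPM and Stat3 at 78.0 TPM, and 1 at 7 DPI held Il6r at 18.51 TPM. The remaining muscles were a grafted running rat with Lif at 5.96 TPM at 3 DPI, a non-repaired non-running rat with Il11 at 5.79 TPM at 7 DPI, control replicate 1 with Lif at 0.17 TPM, and control replicate 4, the lowest of its group for Il6st at 17.95 TPM and Stat3 at 11.01 TPM.

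The difference between injured and contralateral muscle changed between days, by a test of that change with limma, for Il6 (-1.90) and Osm (-1.18) between 7 and 3 DPI, for Osm (-1.20), Il6r (-1.42), Lifr (1.14) and Socs3 (-1.88) between 14 and 7 DPI, and for Il6 (-2.76), Osm (-2.43), Il6r (-1.49), Lifr (1.14), Osmr (-1.11) and Socs3 (-1.72) between 28 and 3 DPI, all on the log2 scale. Such a change can come from either muscle, and day and range of rat numbers are mixed.

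The 9 libraries with conflicting labels entered no comparison, and the highest of them exceeded the highest control muscle for each member. Their highest values were 0.23 TPM for Il6, 0.30 for Il11, 0.68 for Lif, 0.47 for Osm, 6.61 for Il6r, 49.91 for Il6st, 11.38 for Lifr, 5.93 for Osmr, 47.43 for Stat3 and 13.89 for Socs3.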

How the results depend on the processing

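The counts of members called were within 1.5 times of those reported except as follows. With size factors they were 4 (3 higher and Lifr lower) and 0 against control muscle at 7 and 28 DPI, 5 (4 higher and Lifr lower), 0 and 1 against contralateral muscle at 7, 14 and 28 DPI, and 0 for contralateral against control muscle at 3 DPI. A pseudocount of 0.1 gave 6 against control and 5 against contralateral muscle at 14 DPI, 3 for contralateral against control muscle at 3 DPI and 4 for 14 against 7 DPI. The higher range of rat numbers alone, chosen after seeing the data, gave 5 against control muscle at 7 DPI, non-repaired rats alone gave 2 against contralateral muscle at 28 DPI, and control muscles averaged per rat gave 0 for contralateral against control muscle at 3 DPI. Leaving out 1 muscle gave 0 to 2 for that comparison (0 without control replicate 4) and 0 to 1 for 14 against 7 DPI. Of 58 calls of a member in a comparison, size factors ended 27. All libraries kept ended 3, as did non-repaired rats alone, and the higher range of rat numbers alone ended 5, all at 7 DPI. There the 4 non-repaired non-running injured muscles of the higher range had macrophage marker sums of 302 to 600 TPM. The 4 of the lower range had 726 to 1101 TPM. Fibroblast sums were 5117 to 10115 against 10261 to 14703 TPM, and muscle fiber sums 64505 to 92412 against 41497 to 58176 TPM. Sums of the other marker lists overlapped. The part of these cells in the lost calls was not tested. No called value changed sign under the alternatives. With the rat as a replicate block (within-rat correlation 0.026) the counts were the same, for example 8, 8, 3 and 4 against control muscle, and the pairing of muscles by rat changed no call. Deviations from the group means correlated at 0.094 on average within 34 rats. Depth limits cannot be given from TPM.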

Other observations

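Of the 9 libraries left out of every group, 8 were made from 4 running rats of 28 DPI. Their titles and descriptions name the muscle opposite to the one in some of their other labels. The 4 libraries titled as contralateral held 35.71, 47.16, 47.43 and 45.58 TPM of Stat3, 3.82, 5.51, 5.22 and 5.93 TPM of Osmr and 38.89, 49.91, 47.15 and 49.32 TPM of Il6st. The 4 titled as injured held 26.81, 25.10, 19.90 and 24.77 TPM of Stat3, 2.58, 2.54, 1.62 and 1.48 TPM of Osmr and 27.72, 27.43, 24.40 and 26.93 TPM of Il6st. The 2 sets did not overlap for these 3 genes, and no group was assigned from the values. The ninth library held 28.36 TPM of Stat3, 2.87 TPM of Osmr and 11.33 TPM of Lifr.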
